A study of Mus musculus with 15 samples.

Results

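Transcripts of 36 genes of cholesterol synthesis, uptake and efflux were followed in the mouse optic nerve after a crush injury. The 36 were chosen by name, with earlier results of these data known, from the 14237 genes in the table of this study. All 36 were listed, and all 36 were among the 14194 genes that could be tested. They were read in 6 role classes: 8 genes of the mevalonate steps, 11 genes from squalene to cholesterol, 5 genes that control sterol regulatory element binding proteins (SREBPs), 2 genes of lipoprotein uptake, 4 genes of the liver X receptors (LXRs) and efflux, and 6 genes of the lysosome, sterol storage and oxysterols.

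Cells make cholesterol from acetyl-CoA through mevalonate, farnesyl diphosphate, squalene and lanosterol. SREBPs switch these enzymes on when sterols in the endoplasmic reticulum are low, with Scap as their escort and Insig proteins as their anchors, and LXRs sense oxysterols and switch on efflux. In white matter, oligodendrocytes need much cholesterol for myelin, and little of it crosses the blood-brain barrier, so it is made within the tissue. Phagocytes that take up myelin debris free its cholesterol in lysosomes and then esterify or export it.

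The mice were adult and of strain C57BL/6J, and each received a virus in the vitreous of the eye. AAV-null is the control vector, an adeno-associated virus without the cytokine, and AAV-CNTF is an AAV of serotype 2 whose insert encodes a secreted ciliary neurotrophic factor. Sham-operated mice, whose nerve was exposed and left uncrushed, had received AAV-null, and crushed mice had received either AAV-null or AAV-CNTF. Each of the 3 groups had 5 biological replicates, numbered 2 to 6. Crush followed the injection by 2 weeks and the nerves were taken 7 days later; the labels give no times for the sham operation. No group had AAV-CNTF without crush, so the cytokine could be compared only in crushed nerves. The virus went into the eye, and the RNA came from the nerve, which holds glia, vessels, sheath and the axons of retinal ganglion cells but not the somata of those neurons. The sources used here do not give the length of nerve taken.

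Summed over all listed genes, a library had 19856688 to 29558293 expected counts, and the common biological coefficient of variation between libraries of a group was 0.371. Principal component 1 of log2 CPM (each count scaled to the library total, with totals adjusted by TMM) held 33.5% of the variance and separated the sham from the crush libraries. On component 2, with 8.93% of the variance, replicate 6 of crush AAV-null lay apart, at 99.75 against -24.02 to 8.98 in the other libraries. Myelin genes of oligodendrocytes were abundant in every library, and 0 of 6 photoreceptor markers were listed. Of the 6 Schwann cell markers, 3 were listed.

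Levels between genes were compared per length, on the FPKM of the authors (read fragments scaled to transcript length and library depth). In sham nerves Hmgcs1, the synthase of the mevalonate pathway, stood highest of the 36 at 126 ± 21.3 FPKM (SD, n = 5), followed by Lrp1 at 110.0 ± 15.4, a scavenging lipoprotein receptor, and Srebf1 at 85.3 ± 24.1, an SREBP gene. The FPKM of Hmgcs1 and Lrp1 overlapped between libraries, as did those of Lrp1 and Srebf1. Stard4, a cytosolic sterol carrier, stood lowest at 4.16 ± 1.11 FPKM, with Ch25h, which makes 25-hydroxycholesterol, next at 4.36 ± 1.69. After crush with AAV-null the order opened with Lrp1 at 184 ± 31.96 FPKM, Npc2 at 134 ± 14.9, Soat1 at 72.1 ± 28.1 and Abca1 at 62.4 ± 13.0, and Hmgcs1 was the fifth at 57.0 ± 8.53. Lrp1 and Npc2 overlapped between these libraries, and so did Soat1, Abca1 and Hmgcs1, so their order is not settled. Npc2 acts with Npc1 in cholesterol export from the lysosome, Soat1 esterifies cholesterol and Abca1 exports it from the cell. Abca1 had stood 24th of the 36 in sham. The lowest FPKM of any of the 36 in any library was 1.72, for Stard4 after crush with AAV-CNTF, so none of them entered the table through 1 group alone.

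**Figure D1:**
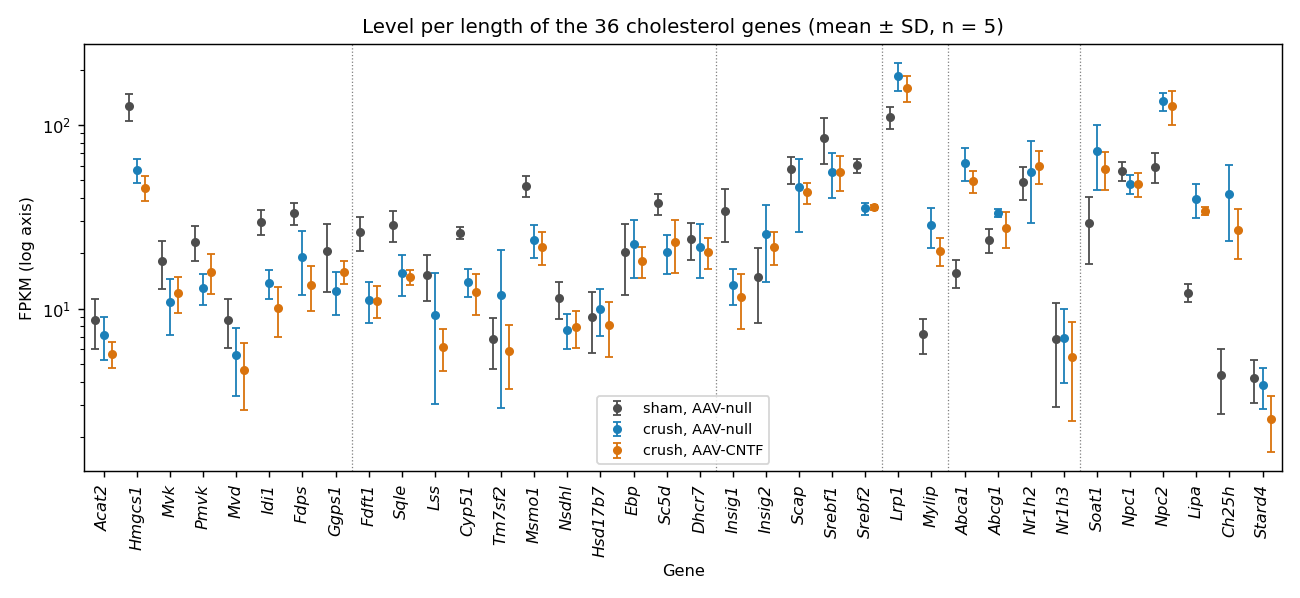
Deposited FPKM (log axis) of the 36 genes, as mean ± SD over 5 libraries in each of the 3 groups, with dotted lines between the role classes. Hmgcs1 was at 126 in sham and 57.0 after crush with AAV-null, and Abca1 moved from 15.7 to 62.4.

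The effect of injury was read between crushed and sham nerves that had both received AAV-null, and this comparison asks what the injury does to these transcripts. Of the synthesis enzymes 14 of 19 fell, and of the SREBP control genes 4 of 5, while Lrp1, Mylip, Abca1, Soat1, Npc2, Lipa and Ch25h rose. Of the 36 genes, 7 rose and 20 fell at a Benjamini-Hochberg adjusted p under 0.05 in edgeR (quasi-likelihood test over 15 libraries), and 9 did not pass. Over all 14194 genes tested, 14.7% rose, 12.9% fell, and 27.6% changed in either direction. The median log2 fold change of the 36 genes was -0.62, beside 0.0048 over all genes. The crush and sham libraries did not overlap for 8 of the 36 on the higher side and for 17 on the lower side, where 10.5% and 10.1% of all genes did the same. In whole tissue, fewer cells of a type and less RNA per cell cannot be told apart. With 2 libraries left out that earlier results of these data had singled out (replicate 6 of crush AAV-null, replicate 4 of crush AAV-CNTF), 7 rose and 18 fell. In the authors' deposited table, the counts are 8 higher and 20 lower, and Abcg1 is among the 8, with an adjusted p of 0.018.

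**Figure D2:**
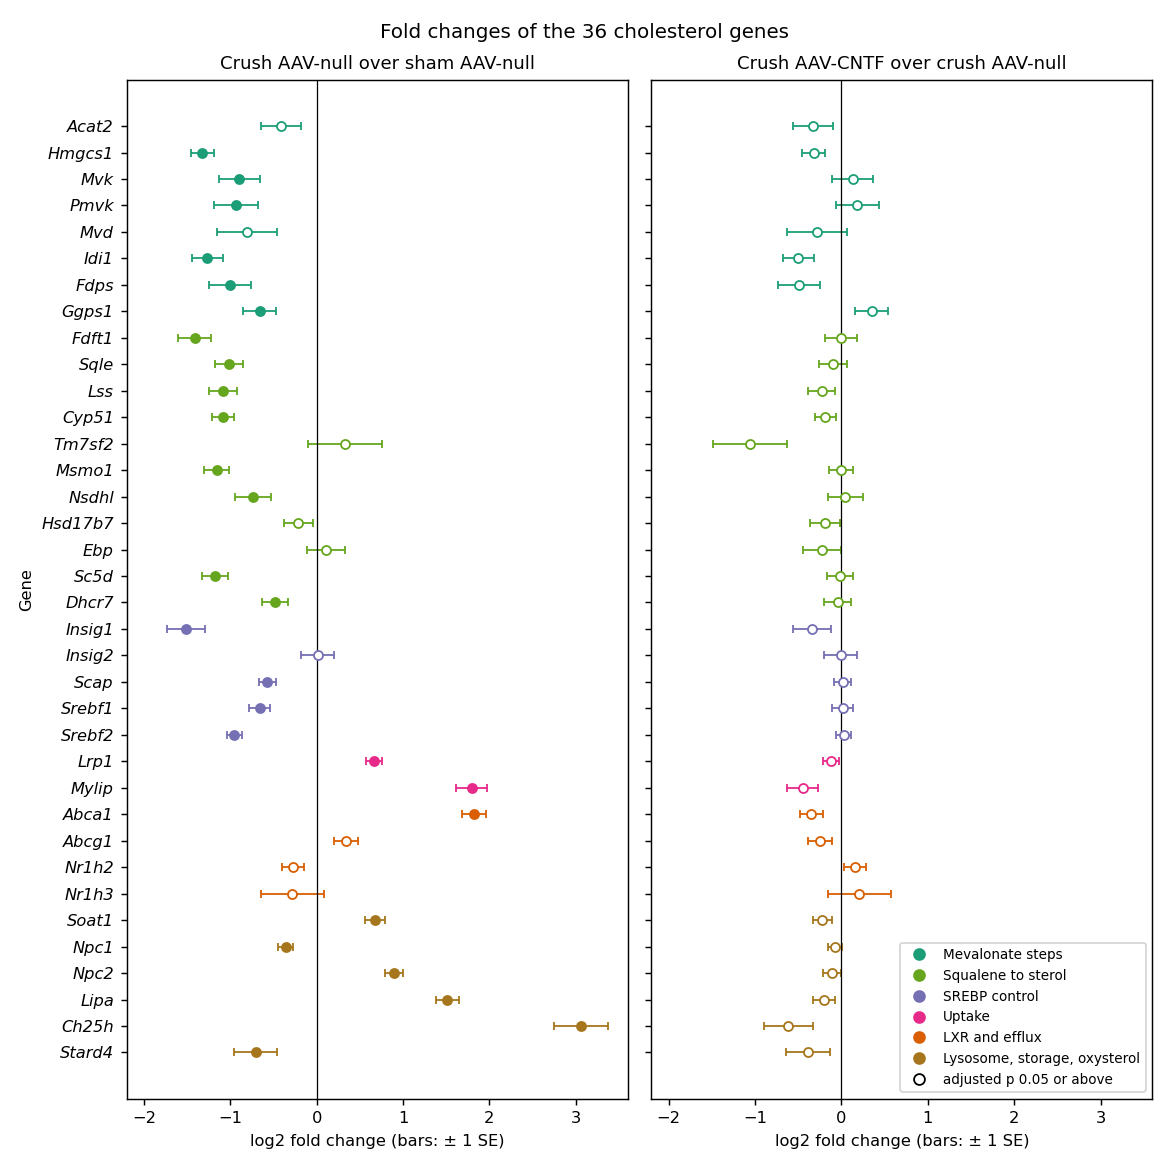
Log2 fold changes (points) with 1 standard error (bars) of the 36 genes, for crush over sham with AAV-null (left) and AAV-CNTF over AAV-null after crush (right), coloured by role class. On the left the filled points, which passed the threshold, number 20 on the lower and 7 on the higher side, and on the right every point is open.

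The synthesis enzymes moved in 1 direction wherever they passed. Of the 19, 14 fell and none rose, with a median log2 fold change of -0.94. Their summed level was 1139 to 1532 CPM in the sham libraries and 583 to 693 CPM in the crush AAV-null libraries. In the mevalonate steps, 6 of 8 fell, from Mvk and Pmvk, the kinases of mevalonate and phosphomevalonate, to Fdps, which makes farnesyl diphosphate. From squalene to cholesterol, 8 of 11 fell.

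Hmgcs1 (chromosome 13, 119690379 to 119708260, plus strand, GENCODE M21 on mm10) condenses acetyl-CoA and acetoacetyl-CoA to HMG-CoA. In replicates 2 to 6 it stood at 496, 428, 354, 328 and 473 CPM in sham, at 176, 144, 171, 138 and 202 CPM after crush with AAV-null, and at 158, 128, 136, 100.5 and 144 CPM after crush with AAV-CNTF. Every sham library was above every crush library, and the crush groups overlapped. The change from sham to crush with AAV-null was -1.32 ± 0.14 on the log2 scale (SE; Benjamini-Hochberg adjusted p by edgeR = 3.39e-07), from 416 ± 73.2 to 166 ± 25.7 CPM (SD, n = 5 each). Idi1 (chromosome 13, 8885501 to 8892451, plus strand), the isomerase of isopentenyl diphosphate, was at 92.5, 88.8, 64.2, 71.1 and 95.5 CPM in sham, at 44.1, 26.4, 37.0, 28.6 and 35.5 CPM in crush AAV-null, and at 34.3, 25.5, 18.1, 18.8 and 24.5 CPM in crush AAV-CNTF. Again the lowest sham library lay above the highest crush library. Idi1 changed by -1.26 ± 0.18 (SE, log2 scale; Benjamini-Hochberg adjusted p by edgeR = 1.78e-05).

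Fdps averaged 37.5 ± 5.34 CPM in sham and 18.7 ± 6.99 CPM in crush AAV-null (SD, n = 5), Pmvk changed by -0.94 and Mvk by -0.89 on the log2 scale. Ggps1, which makes geranylgeranyl diphosphate on a branch away from sterols, changed by -0.66 ± 0.19 (SE; Benjamini-Hochberg adjusted p by edgeR = 0.0128). Its call was lost without sham replicate 5 (adjusted p = 0.0515, range 0.00182 to 0.0515 over the alternatives). Acat2, the cytosolic thiolase, did not pass, at -0.42 ± 0.23 (SE; Benjamini-Hochberg adjusted p by edgeR = 0.209), and it has a near-identical mouse copy, Acat3, with which its reads may be shared. Mvd, the decarboxylase, did not pass at -0.81 ± 0.34 (SE; Benjamini-Hochberg adjusted p by edgeR = 0.0903). It passed without sham replicate 5 (adjusted p = 0.049) or without crush AAV-null replicate 5 (0.0497), with a range of 0.049 to 0.212 over the alternatives.

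Fdft1 (chromosome 14, 63145150 to 63179578, minus strand), squalene synthase, commits farnesyl diphosphate to sterols. Its levels were 88.6, 77.9, 55.8, 61.8 and 92.7 CPM in sham, 32.3, 34.0, 21.2, 20.6 and 33.7 CPM in crush AAV-null, and 32.5, 24.0, 33.1, 20.3 and 31.5 CPM in crush AAV-CNTF. All 10 crush libraries were below all 5 sham libraries. Fdft1 had the largest fall of the synthesis enzymes in the list, at -1.41 ± 0.19 (SE, log2 scale; Benjamini-Hochberg adjusted p by edgeR = 9.03e-06). It overlaps Ctsb, a lysosomal protease gene on the opposite strand, by 774 bases, and Ctsb rose from 593 ± 97.2 to 2756 ± 518 CPM. Of the 36 genes, 19 overlap another annotated gene, and 5 overlap a gene listed in the table (Ggps1, Fdft1, Cyp51, Tm7sf2 and Srebf1). Sc5d (chromosome 9, 42251595 to 42264256, minus strand), the lathosterol desaturase, was at 123, 113, 108, 107 and 140.5 CPM in sham. Its crush libraries stood at 49.8, 57.4, 60.5, 47.3 and 46.2 CPM with AAV-null and at 65.3, 44.2, 63.7, 34.8 and 50.5 CPM with AAV-CNTF, with no overlap with sham. The change in Sc5d was -1.18 ± 0.15 (SE, log2 scale; Benjamini-Hochberg adjusted p by edgeR = 4.58e-06).

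Several enzymes between squalene and zymosterol moved by a like amount. Sqle, squalene epoxidase, changed by -1.02, Lss, lanosterol synthase, by -1.08, Cyp51, the lanosterol demethylase, by -1.08, and Msmo1, the sterol C4 methyl oxidase, by -1.16. Other enzymes of this class, given next, moved less or did not pass. Nsdhl, which acts with Msmo1 in C4 demethylation, changed by -0.74 and Dhcr7, the reductase of the last step, by -0.48 (Benjamini-Hochberg adjusted p by edgeR = 0.0244). The call of Dhcr7 was lost without sham replicate 6 (adjusted p = 0.0991) and without crush AAV-null replicate 4 (0.0659), 5 (0.0543) or 6 (0.0618), with a range of 0.0121 to 0.0991 over the alternatives. It was also lost with the 2 libraries named above left out together (edgeR adjusted p = 0.0635). Tm7sf2, Hsd17b7 and Ebp, a sterol reductase, a ketoreductase and an isomerase, did not pass, at 0.33 ± 0.43, -0.21 ± 0.17 and 0.10 ± 0.22 (SE, log2 scale). Tm7sf2 was low and uneven after crush with AAV-null, at 3.18, 11.8, 2.78, 5.33 and 11.7 CPM, and its annotation overlaps that of Vps51 on the same strand by 532 bases.

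**Figure D3:**
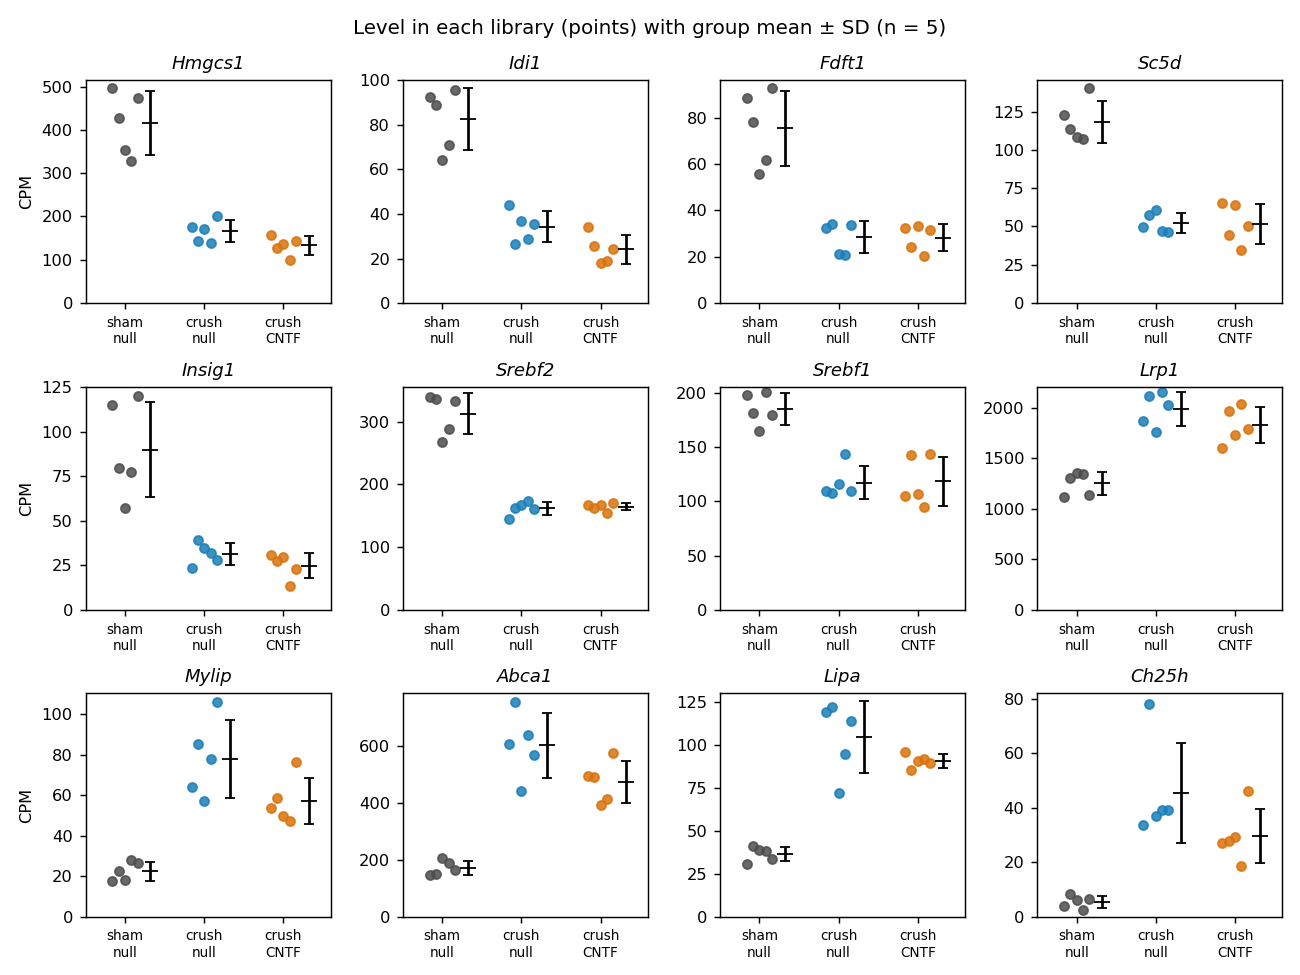
CPM in each library (points) with the group mean ± SD (n = 5) for 12 of the genes in the 3 groups, each panel from 0. Sham points lie above every crush point for Hmgcs1, Idi1, Fdft1, Sc5d, Insig1, Srebf2 and Srebf1 and below every crush point for Lrp1, Mylip, Abca1, Lipa and Ch25h.

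Promoters were read for all of the genes that could be matched, whether they rose or fell, because SREBPs bind the sterol regulatory element and act there with NF-Y, which binds CCAAT boxes, and with Sp1. RefSeq promoters on GRCm38.p6 (250 bases before to 50 after the start) were found for 30 of the 36 genes, 16 of them synthesis enzymes. The element as searched, TCACNCCAC on either strand, was present for 1 of the 30, Hmgcs1, and for 1.44% of the 27025 genes in the promoter table. With 1 mismatch allowed it was present for 13 of the 30 (43.3%), 7 of them synthesis enzymes, and for 26.7% of all genes. The others of the 13 were Insig1, Insig2, Srebf2, Lipa, Mylip and Nr1h3, of which Lipa and Mylip rose. CCAAT was present for 23 of the 30 (76.7%), 15 of the 16 synthesis enzymes among them, beside 41.06% of all genes, and GGGCGG, the Sp1 box, for 25 of the 30 (83.3%) beside 38.2%. Among the 15 genes read that fell, 7 held the element at up to 1 mismatch, 14 CCAAT and 13 GGGCGG, and among the 7 that rose, 2, 4 and 6 did. The 27025 genes of the promoter table were not limited to genes listed in the nerve. Their shares are therefore not a matched background for the 30, and no matched background was read. These are matches of letters in a window, not sites of binding, which was not measured. The synthesis enzymes of smallest adjusted p with the element, at up to 1 mismatch, are printed 5′ to 3′ along the gene, with capitals for the element and for CCAAT on either strand (ATTGG where it reads on the other strand). They lie at chr13:119690101-119690400 (plus strand, Hmgcs1), chr5:4104648-4104947 (minus, Cyp51), chr8:64733529-64733828 (minus, Msmo1) and chrX:72918271-72918570 (plus, Nsdhl).
Hmgcs1: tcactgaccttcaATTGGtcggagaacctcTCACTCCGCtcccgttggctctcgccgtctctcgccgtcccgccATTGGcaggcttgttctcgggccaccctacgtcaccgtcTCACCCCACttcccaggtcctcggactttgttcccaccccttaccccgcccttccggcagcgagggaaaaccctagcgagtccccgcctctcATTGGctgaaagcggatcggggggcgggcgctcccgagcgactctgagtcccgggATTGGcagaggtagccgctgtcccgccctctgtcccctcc
Cyp51: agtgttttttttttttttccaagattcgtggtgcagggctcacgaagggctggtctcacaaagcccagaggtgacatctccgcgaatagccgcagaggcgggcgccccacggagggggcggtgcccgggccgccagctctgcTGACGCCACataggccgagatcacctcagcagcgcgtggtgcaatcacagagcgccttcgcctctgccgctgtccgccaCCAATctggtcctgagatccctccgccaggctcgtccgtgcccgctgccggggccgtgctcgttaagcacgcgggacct
Msmo1: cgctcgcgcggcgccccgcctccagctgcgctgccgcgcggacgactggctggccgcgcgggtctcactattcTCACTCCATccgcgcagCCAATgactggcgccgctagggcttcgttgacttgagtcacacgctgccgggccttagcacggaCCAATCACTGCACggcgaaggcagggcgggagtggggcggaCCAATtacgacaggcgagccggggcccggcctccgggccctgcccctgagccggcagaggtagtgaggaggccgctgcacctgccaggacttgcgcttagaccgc
Nsdhl: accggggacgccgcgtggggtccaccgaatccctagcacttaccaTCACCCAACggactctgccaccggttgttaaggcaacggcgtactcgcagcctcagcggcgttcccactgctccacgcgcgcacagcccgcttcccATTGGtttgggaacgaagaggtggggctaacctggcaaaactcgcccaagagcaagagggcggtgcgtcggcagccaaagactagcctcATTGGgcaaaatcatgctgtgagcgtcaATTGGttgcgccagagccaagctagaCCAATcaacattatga

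In Hmgcs1 the exact match TCACCCCAC begins 137 bases before the start, and a copy with 1 mismatch begins 220 bases before it, among 4 CCAAT boxes. Cyp51 has 1 element with a mismatch, 108 bases before the start, and 1 CCAAT box, while Msmo1 has 2 such elements, at 177 and 92 bases before it, and 3 CCAAT boxes. In Msmo1 the last letter of a CCAAT box is the first letter of an element. Nsdhl has 1 element with a mismatch, 205 bases before the start, and 4 CCAAT boxes. The 4 genes fell after crush by 1.32 (Hmgcs1), 1.08 (Cyp51), 1.16 (Msmo1) and 0.74 (Nsdhl) on the log2 scale.

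Of the 5 SREBP control genes, 4 fell and 1 did not pass. Insig1 (chromosome 5, 28071363 to 28078662, plus strand), which holds the SREBP and Scap complex in the endoplasmic reticulum and is itself an SREBP target, had the largest fall of all 36 genes. It stood at 115, 79.8, 57.1, 77.6 and 119.9 CPM in sham, at 23.3, 39.0, 35.0, 31.9 and 28.1 CPM in crush AAV-null, and at 30.7, 27.3, 29.9, 13.6 and 22.8 CPM in crush AAV-CNTF. The sham libraries ranged widely, yet the lowest was above the highest crush library. Insig1 changed by -1.51 ± 0.22 (SE, log2 scale; Benjamini-Hochberg adjusted p by edgeR = 2.12e-05), and its paralog Insig2 by 0.01 ± 0.19 (adjusted p = 0.976), with 95% bounds of -0.40 and 0.43.

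Srebf2 (chromosome 15, 82147181 to 82205379, plus strand) encodes the SREBP that acts mainly on cholesterol genes. Its levels were 339.9, 337, 268, 288 and 333 CPM in sham, 145, 162, 167, 174 and 161 CPM in crush AAV-null, and 168, 163, 167, 155 and 171 CPM in crush AAV-CNTF. The 10 crush libraries lay in a narrow band, below every sham library. The change was -0.95 ± 0.09 (SE, log2 scale; Benjamini-Hochberg adjusted p by edgeR = 5.94e-08). Srebf1 (chromosome 11, 60199089 to 60222581, minus strand) encodes the SREBP that acts mainly on fatty acid genes and is also an LXR target. It was at 198, 181, 165, 201 and 179.6 CPM in sham, at 109, 108, 116, 144 and 109 CPM in crush AAV-null, and at 105, 142, 107, 95.2 and 143 CPM in crush AAV-CNTF. No crush library reached the lowest sham library. Srebf1 changed by -0.66 ± 0.12 (SE, log2 scale; Benjamini-Hochberg adjusted p by edgeR = 0.000274), and Scap, the escort, by -0.57 ± 0.10 (adjusted p = 0.000132).

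Both uptake genes rose. Lrp1 (chromosome 10, 127538161 to 127621148, minus strand), an endocytic receptor of lipoproteins and myelin debris, stood at 1117, 1311, 1352, 1349 and 1139 CPM in sham, at 1870.5, 2114, 1759, 2159 and 2031 CPM in crush AAV-null, and at 1603, 1973, 1733, 2041 and 1792 CPM in crush AAV-CNTF. Sham and crush did not overlap. Lrp1 changed by 0.66 ± 0.10 (SE, log2 scale; Benjamini-Hochberg adjusted p by edgeR = 2.07e-05). Mylip (chromosome 13, 45389742 to 45412022, plus strand), an LXR target, encodes a ubiquitin ligase that marks lipoprotein receptors for breakdown. It was at 17.7, 22.3, 18.01, 27.9 and 26.4 CPM in sham, at 64.1, 85.4, 56.9, 77.7 and 106 CPM in crush AAV-null, and at 53.5, 58.5, 49.96, 47.3 and 76.3 CPM in crush AAV-CNTF. Every crush library was above every sham library. The rise of Mylip was 3.47-fold, a log2 change of 1.80 ± 0.18 (SE; Benjamini-Hochberg adjusted p by edgeR = 2.57e-07).

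Of the LXR and efflux genes, 1 of 4 rose and 3 did not pass. Abca1 (chromosome 4, 53030787 to 53159895, minus strand), the transporter that loads cholesterol onto lipid-poor apolipoproteins, stood at 146, 151, 206, 188 and 164 CPM in sham, at 608, 755, 442, 639 and 570.3 CPM in crush AAV-null, and at 494, 493, 391, 416 and 575 CPM in crush AAV-CNTF. The crush groups lay apart from sham and overlapped each other. Abca1 rose 3.52-fold, a log2 change of 1.82 ± 0.14 (SE; Benjamini-Hochberg adjusted p by edgeR = 6.11e-09). Abcg1, which exports cholesterol to lipoprotein particles, went from 84.4 ± 12.4 to 107 ± 5.57 CPM without overlap, but did not pass, at 0.34 ± 0.14 (SE, log2 scale; Benjamini-Hochberg adjusted p by edgeR = 0.0815). Its adjusted p ranged from 0.0288 to 0.189 over the alternatives, the lowest in a fit of the 10 libraries of these 2 groups. Nr1h2 and Nr1h3, which encode LXRβ and LXRα, did not pass, at -0.28 ± 0.13 and -0.28 ± 0.37 (SE, log2 scale). Nr1h2 passed without sham replicate 4 (Benjamini-Hochberg adjusted p by edgeR = 0.0474, range 0.0474 to 0.28 over the alternatives). The LXR element searched, 2 copies of GGTCA in 1 orientation with 5 bases between them (the cores of a direct repeat with a spacer of 4), was in 0 of the 30 promoters read and in 0.09% of all genes' promoters. At that share a match among 30 promoters is improbable in any case, so the 0 says little of these genes. No mismatch was allowed in this search, and Abcg1 had no promoter to read.

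In the lysosome, storage and oxysterol class, 4 of 6 genes rose and 2 fell. Ch25h (chromosome 19, 34473778 to 34475164, minus strand) had the largest change of the 36 genes. It was at 3.82, 8.17, 6.10, 2.63 and 6.44 CPM in sham, at 33.8, 78.2, 36.9, 39.3 and 39.3 CPM in crush AAV-null, and at 26.9, 27.8, 29.1, 18.6 and 46.0 CPM in crush AAV-CNTF. The lowest crush library was above the highest sham library. The rise was 8.34-fold, a log2 change of 3.06 ± 0.31 (SE; Benjamini-Hochberg adjusted p by edgeR = 2.41e-07). Its next neighbour among the 36, Lipa (chromosome 19, 34492318 to 34527474, minus strand), encodes the acid lipase that frees cholesterol from esters in lysosomes. Lipa stood at 30.8, 41.1, 39.1, 38.6 and 33.7 CPM in sham, at 119, 122, 72.4, 94.8 and 114 CPM in crush AAV-null, and at 96.2, 85.4, 90.7, 91.7 and 89.9 CPM in crush AAV-CNTF. There was again no overlap with sham. Lipa changed by 1.51 ± 0.13 (SE, log2 scale; Benjamini-Hochberg adjusted p by edgeR = 3.55e-08).

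Soat1 rose 1.60-fold and Npc2 1.86-fold, on the CPM scale. Npc1, the membrane partner of Npc2 in lysosomal cholesterol export, moved the other way, from 286 ± 27.2 to 223 ± 11.9 CPM, a log2 change of -0.36 ± 0.08 (SE; Benjamini-Hochberg adjusted p by edgeR = 0.00218). Stard4 changed by -0.71 ± 0.25 (SE, log2 scale; Benjamini-Hochberg adjusted p by edgeR = 0.0424). Its call was lost without any 1 of sham replicates 3, 5 and 6 or crush AAV-null replicates 2, 3 and 6, and with the replicate number as a block (adjusted p = 0.0739), with a range of 0.0332 to 0.126 over the alternatives. Leaving out the 2 libraries named above together lost it too (edgeR adjusted p = 0.114).

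**Figure D4:**
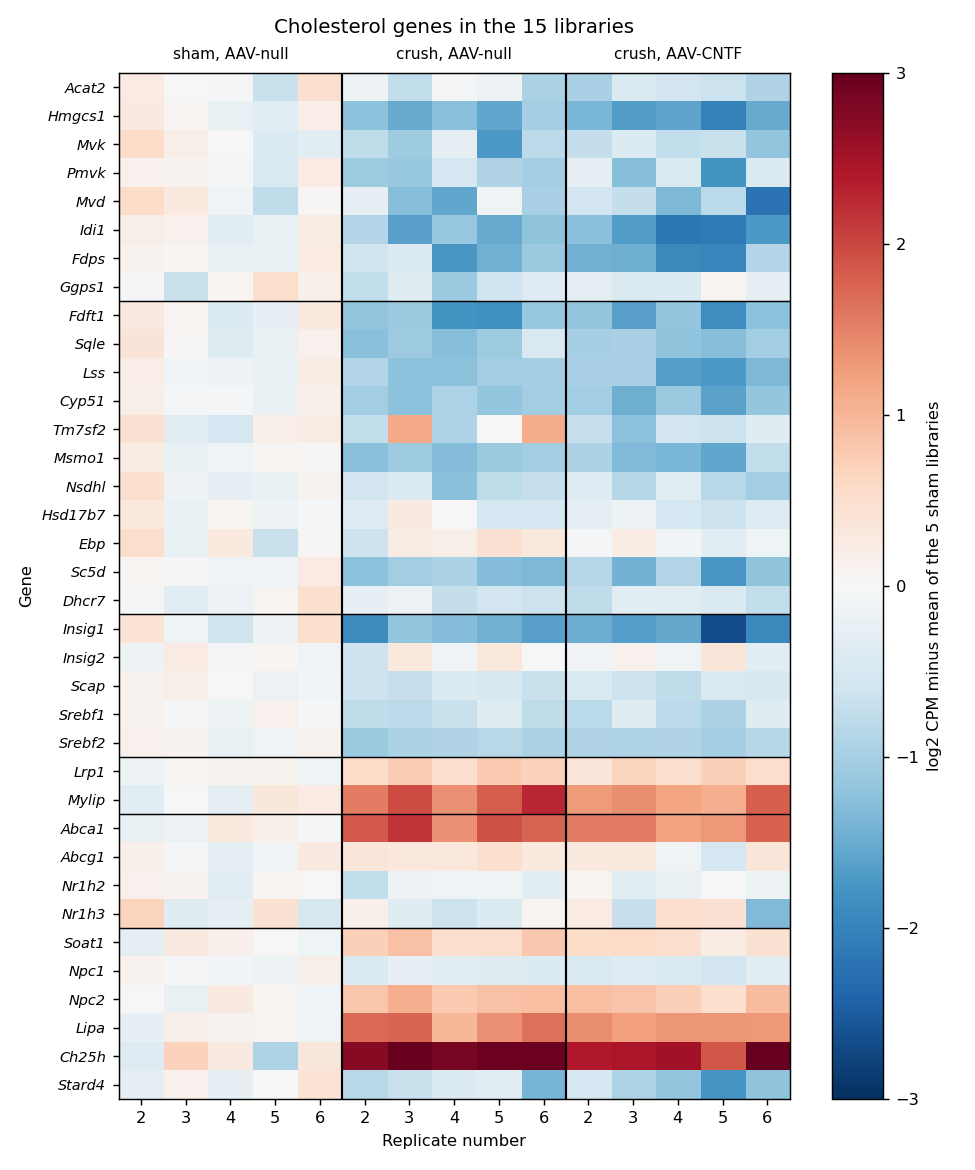
Log2 CPM of the 36 genes in the 15 libraries, minus the mean of the 5 sham libraries, with lines between role classes and groups and a colour scale that ends at 3 on either side. Synthesis and SREBP control rows are mostly blue in the crush columns, and Lrp1, Mylip, Abca1, Soat1, Npc2, Lipa and Ch25h are red in all 10.

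Markers of several cell types of the nerve also changed between sham and crush. In the oligodendrocyte and myelin list, 19 of 20 genes fell and none rose (median log2 fold change -1.01), and the summed level was 56591 to 71475 CPM in sham and 24887 to 33973 CPM in crush AAV-null. Within each library, the mean log2 CPM of the 19 synthesis enzymes minus that of the 20 myelin genes was -4.01 ± 0.09 in sham, -3.82 ± 0.22 in crush AAV-null and -3.82 ± 0.10 in crush AAV-CNTF (SD, n = 5 each), and the ranges of sham (-4.10 to -3.88) and crush AAV-null (-4.17 to -3.59) overlapped. In the phagocyte list, 14 of 15 genes rose and none fell (median 2.66), and the sum went from 1819 to 2698 CPM in sham to 9709 to 16898 CPM in crush AAV-null. The mean log2 CPM of the 4 LXR and efflux genes minus that of the 15 phagocyte genes was 0.36 ± 0.29 in sham, -1.65 ± 0.28 in crush AAV-null and -1.50 ± 0.20 in crush AAV-CNTF (SD, n = 5 each), with no overlap between sham and either crush group. The LXR and efflux mean itself went from 5.75 in sham to 6.16 in crush AAV-null, and the phagocyte mean from 5.39 to 7.81. The difference thus mostly restates the rise of the phagocyte list, and of the 4 genes only Abca1 passed. The part of either list in the results for the 36 genes was not tested.

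Among the other cell type lists, crush with AAV-null against sham gave 8 higher and 1 lower of 11 for microglia, 0 and 10 of 12 for astrocytes, 4 and 3 of 9 for NG2 glia, 1 and 3 of 9 for endothelium, and 4 and 2 of 8 for mural cells. It gave 6 and 0 of 8 for fibroblasts, 3 and 4 of 9 for neurons and axons, 10 and 0 of 10 for cell division, and 0 and 1 of 3 for Schwann cells. Skeletal muscle genes had 0 calls of 6 tested, and their sum was 19.2 to 208 CPM in sham and 10.04 to 62.6 CPM in crush AAV-null.

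**Figure D5:**
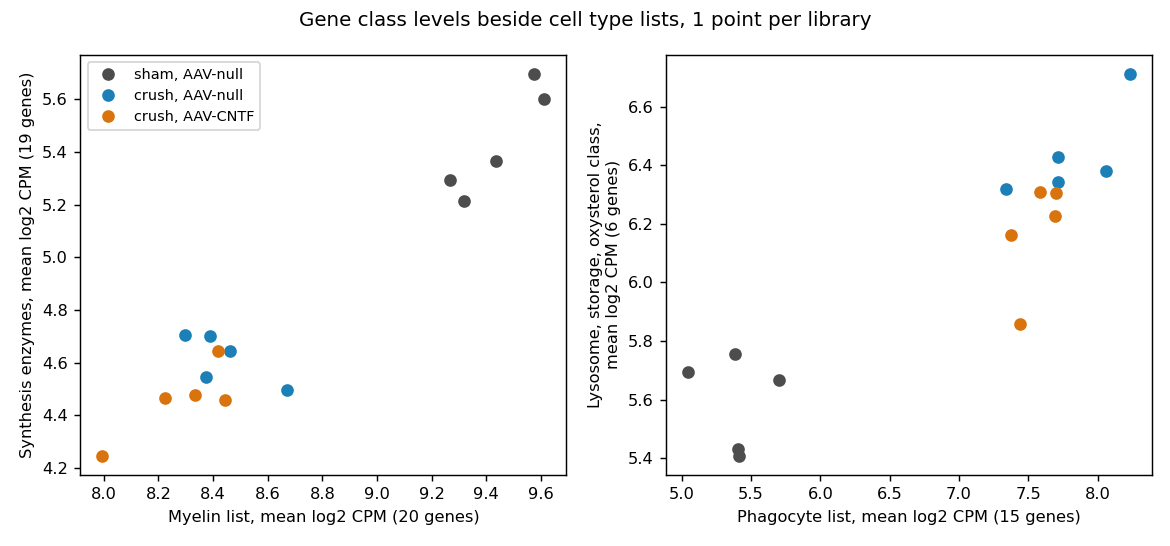
Mean log2 CPM of the 19 synthesis enzymes against that of the 20 myelin genes (left), and of the 6 lysosome, storage and oxysterol genes against that of the 15 phagocyte genes (right), 1 point per library, coloured by group. The sham libraries sit at upper right on the left panel and at lower left on the right panel, apart from all crush libraries, and the 2 crush groups lie together.

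The second comparison, AAV-CNTF against AAV-null after crush, asks what the cytokine adds, and it shares the crush AAV-null libraries with the first. None of the 36 genes passed in edgeR at a Benjamini-Hochberg adjusted p under 0.05, and none did by DESeq2 or limma-voom. Over all genes, 0.0423% were called higher, 0.0141% lower and 0.0564% in either direction. At an unadjusted p under 0.05 there were 6 of the 36 (Hmgcs1, Idi1, Tm7sf2, Mylip, Abca1 and Ch25h), 16.7% beside 7.69% of all genes. All 6 were lower with AAV-CNTF in sign, as were 27 of the 36, beside 7170 of all 14194 genes tested. The median log2 fold change was -0.15 beside -0.0035 over all genes. Genes measured in the same libraries are not independent, so the 27 signs are not 27 separate results.

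The smallest p values of the 36 were those of Idi1, Abca1 and Mylip, whose libraries are given above. Idi1 averaged 34.3 ± 7.03 CPM with AAV-null and 24.2 ± 6.53 CPM with AAV-CNTF (SD, n = 5 each), a log2 difference of -0.50 ± 0.18 (SE; Benjamini-Hochberg adjusted p by edgeR = 0.447). Abca1 averaged 603 ± 113 and 474 ± 72.7 CPM, a difference of -0.35 ± 0.13 (adjusted p = 0.494), and Mylip 78.0 ± 19.2 and 57.1 ± 11.5 CPM, a difference of -0.45 ± 0.18 (adjusted p = 0.502). In each of the 3 the groups overlapped. The 95% bounds of the difference were -0.89 and -0.11 for Idi1, -0.64 and -0.055 for Abca1, and -0.83 and -0.07 for Mylip, unadjusted for the number of genes. For Srebf2 they were -0.16 and 0.21, for Srebf1 -0.25 and 0.28, for Msmo1 -0.31 and 0.31, and for Fdft1 -0.41 and 0.40, so changes within these bounds cannot be told from none. Tm7sf2 had the widest bounds, -2.00 and -0.13. The myelin list summed to 20803 to 29845 CPM with AAV-CNTF and the phagocyte list to 7139 to 11535 CPM, and neither list had a gene past the threshold against AAV-null.

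Crush with AAV-CNTF was also set against sham with AAV-null, a comparison in which injury and vector both differ and which shares libraries with the others. Of the 36 genes, 7 rose and 21 fell (edgeR quasi-likelihood, Benjamini-Hochberg), beside 17% and 14.3% of all genes and 31.3% in either direction, and the median was -0.67. The 7 that rose were Lrp1, Mylip, Abca1, Soat1, Npc2, Lipa and Ch25h, the names that rose with AAV-null. Hmgcs1 changed by -1.64, Idi1 by -1.77, Insig1 by -1.85, Abca1 by 1.47 and Ch25h by 2.44 on the log2 scale, beside -1.32, -1.26, -1.51, 1.82 and 3.06 with AAV-null.

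Acat2 (-0.75, adjusted p = 0.0188) and Mvd (-1.09, adjusted p = 0.0199) passed against sham with AAV-CNTF and not with AAV-null, and Ggps1 (-0.31, adjusted p = 0.241) the reverse, by edgeR's quasi-likelihood test. The difference between the crush groups did not pass for these 3 (adjusted p = 0.834, 0.937 and 0.718). Single libraries decided the calls of 6 genes here. Without sham replicate 2, Mvk (edgeR adjusted p = 0.0688, range 0.00995 to 0.0688 over the alternatives), Mvd (0.0597, range 0.00918 to 0.0597) and Nsdhl (0.052, range 0.00643 to 0.052) were lost. Leaving out the 2 libraries named earlier together also lost Mvd (edgeR adjusted p = 0.0513). Without sham replicate 6, Acat2 (0.0684, range 0.00517 to 0.0684) and Dhcr7 (0.0544, range 0.00635 to 0.0544) were lost. Mvk was also lost without crush AAV-CNTF replicate 6 (0.0512), and Pmvk without sham replicate 2 or 6 or crush AAV-CNTF replicate 3 or 5 (range 0.00518 to 0.0749).

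Across the 15 libraries, several genes followed the myelin list closely. Pearson's r with the mean log2 CPM of the myelin genes was 0.98 for Hmgcs1, 0.98 for Cyp51, 0.95 for Insig1 and 0.94 for Npc1, and -0.94 for Lipa and -0.93 for Lrp1. The 15 points include the 3 groups, so these values mostly restate the difference between sham and crush. Within groups, on deviations from the group means, the 171 pairs of synthesis enzymes had a median r of 0.20, and 129 of them were above 0, beside a median of 0.07 over the 323 pairs of a synthesis enzyme with another of the 36. Fdft1 and Hmgcs1 each had r of 0.76 with the mean of the other synthesis enzymes, Insig1 0.71, Npc1 0.69 and Abcg1 0.65, while Lrp1 had -0.63. Over the 15 levels, Npc1 had r of 0.95 with the mean of the synthesis enzymes, and Lipa was at -0.02 within groups. The synthesis enzymes themselves ranged within groups from -0.20 (Ggps1) to 0.76, with Acat2 at 0.03 and Mvk at 0.05. The r within groups therefore does not sort the genes by class. Libraries share their RNA preparation and depth across genes, and these are descriptions over 15 libraries.

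Outside the 36 genes, the profiles most like the mean of the synthesis enzymes over the 15 libraries were those of Gpr37 (r = 0.972), Scd2 (0.972) and Enpp2 (0.968), with Fez1, Atrn, Fa2h and Ephb1 also among the 10 closest. Scd2 is a fatty acid desaturase, and Fa2h makes hydroxylated fatty acids of myelin lipids. By Spearman's rho, 2 of the 10 closest were shared with this list.

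Neighbouring lipid pathways were read from lists of named genes, and no gene of any of them passed in AAV-CNTF against AAV-null after crush. In fatty acid synthesis, 13 of 15 genes fell after crush with AAV-null and none rose (median log2 fold change -0.59). Acsl3, an acyl-CoA synthetase, changed by -1.50 ± 0.12 and Scd1, a desaturase, by -1.31 ± 0.11 (SE, log2 scale; Benjamini-Hochberg adjusted p by edgeR = 2.04e-08 and 3.22e-08).

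In other sterol transport and ester genes, 3 of 22 rose and 9 fell. Plin2, a coat protein of lipid droplets, went from 19.3 ± 6.04 to 114 ± 38.8 CPM, a log2 change of 2.56 ± 0.24 (SE; Benjamini-Hochberg adjusted p by edgeR = 8.88e-08). Abca2, a transporter abundant in oligodendrocytes, went from 1169 ± 129 to 548 ± 72.5 CPM, a change of -1.09 ± 0.12 (adjusted p = 5.08e-07). The others that rose were Nceh1, which hydrolyses cholesterol esters, and Scarb1, a receptor for high-density lipoprotein. Among LXR partners and other LXR targets, 3 of 9 rose and 1 fell. Arl4c changed by 1.22 ± 0.17 and Rxra, the partner receptor of LXRs, by 0.77 ± 0.14 (SE, log2 scale; Benjamini-Hochberg adjusted p by edgeR = 1.45e-05 and 0.000221), while Ncoa1 fell.

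The branches that leave the mevalonate pathway for dolichol, ubiquinone and prenylated proteins had 1 of 13 genes higher (Rce1, a protease of prenylated proteins) and none lower. Other sterol enzymes and SREBP processing genes had 1 of 11 higher (Cyb5r3, 239 ± 20.8 to 295 ± 28.3 CPM) and none lower. Of the oxysterol and bile acid enzymes, Cyp27a1 fell, 1 of 5, from 26.2 ± 5.97 to 16.1 ± 1.72 CPM.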

How the data were processed

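Total RNA of 15 optic nerve samples (3 groups of 5) was sequenced; the labels name 2 library kits, Nugen AnyDeplete and TruSeq Stranded Total, and the sources used here do not say which served which library. Per the submitters' processing notes, Trimmomatic 0.32, STAR 2.5.3a, RSEM 1.2.31, R 3.2.3 and DESeq2 (no version) were used with mm10. Per the file headers, the deposited table holds expected counts and FPKM values of each library, as the authors made them. It also holds the authors' log2 fold changes and the authors' adjusted p-values for each pair of groups. Every gene in it reaches 1 FPKM in 4 or more libraries of at least 1 group.

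Expected counts were rounded and fitted in R 4.3.3 with edgeR 4.0.16 (TMM, filterByExpr, quasi-likelihood test, 1 mean per group over 15 libraries, 12 residual degrees of freedom), with Benjamini-Hochberg adjustment over 14194 genes and a threshold of 0.05. Standard errors are the log2 fold change over the root of F, and 95% bounds use 12 degrees of freedom. Log2 CPM has a prior count of 2. The fit was checked on simulated counts. Alternatives were RLE and upper quartile scaling, 2 other filters, a fit of only the 10 libraries of a comparison, the replicate number as a block, DESeq2 1.42.0, limma-voom (limma 3.58.1), 2 libraries left out, abundant genes left out, and each library left out in turn. Within groups, every pair of libraries differed beyond sampling noise (lowest chi-square over degrees of freedom 40.47).

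The members and lists were chosen with earlier results of these data known. Values of every library are given for the 2 genes of each class with the largest change past the threshold, for the 3 genes of smallest p with AAV-CNTF against AAV-null, and for Srebf1, Srebf2 and Insig1. Genes named after their values were seen are Tm7sf2 by library, Ctsb, and the members of counts of 5 or fewer. Some genes that a rule selects are not reported here. All 36 genes were matched to GENCODE M21 by identifier.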

Additional observations from a re-analysis of the deposited data

Results flagged for a closer look

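Of 108 groups of 5 libraries (36 genes in 3 groups), 4 held a library whose gap to its nearest neighbour exceeded 0.71 of the group's range; chance alone gives about 1 in 20 such groups. Ggps1 was at 40.3 CPM in crush AAV-CNTF replicate 5, beside 28.4 to 30.9 in the other 4 libraries. Sqle was at 57.8 CPM in crush AAV-null replicate 6, the library set apart on component 2, beside 32.9 to 38.0. Srebf1 was at 144 CPM in crush AAV-null replicate 5, beside 108 to 116. Ch25h was at 78.2 CPM in crush AAV-null replicate 3, beside 33.8 to 39.3; that library also had the highest phagocyte list level of the 15, at a mean log2 CPM of 8.24.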

How the results depend on the processing

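No called gene changed direction under any of the 20 alternatives of each comparison. Of 27 calls in crush against sham with AAV-null, 24 held in all 20, and of 28 calls in crush with AAV-CNTF against sham, 22 did. With single libraries left out, the counts of genes that fell ranged from 18 to 21 and from 17 to 21, and those that rose stayed at 7. Same-numbered libraries correlated at -0.05 to 0.11 in their deviations from the group means (15 pairs). In 3 of the 15 pairs, each library was the closest to the other among the libraries of its group. All 3 lay between the crush groups (replicates 2, 3 and 5). The main fit took no pairing from the numbers, and whether they mark a batch was not tested. With the replicate number as a block, Stard4 lost its call (Benjamini-Hochberg adjusted p by edgeR = 0.0739), no other call of the 36 genes changed in any comparison, and Insig2 read -0.0144. Directions turned only in genes that did not pass, all near 0 except Tm7sf2 (0.33 ± 0.43, SE, in the main fit of crush against sham with AAV-null). In crush against sham with AAV-null these were Tm7sf2 (-0.0258 by limma-voom), Insig2 (-0.0115 by upper quartile, -0.0054 by limma-voom, -0.0765 to 0.135 with single libraries left out) and Ebp (-0.0314 to 0.251). In crush with AAV-CNTF against sham they were Insig2 (8.5e-05 by limma-voom, 0.0257 without the 2 libraries, 0.0045 without abundant genes, -0.103 to 0.0693 with single libraries left out), Ebp (-0.260 to 0.0219) and Nr1h3 (-0.239 to 0.128). Over all genes, calls in AAV-CNTF against AAV-null numbered 8, and 83 by DESeq2, 16 with the block, 5 by limma-voom, 2 without the 2 libraries, 1 in the 10 libraries alone and 1 to 41 with single libraries left out, with none of the 36 in any. One mismatch in the sterol element took the promoters with it from 1 to 13. The causes were not tested. The table lists no gene of low level, and the sources used here do not say whether counting used strand, so overlapping genes such as Fdft1 and Ctsb cannot be told apart where they share bases.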

Other observations

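In the neighbouring lists of sterol transport and isoprenoid branches, 3 genes passed against sham with AAV-CNTF and not with AAV-null. Apod, a lipid-binding apolipoprotein of glia, averaged 1690.2 ± 296 CPM in sham, 1879 ± 193 CPM in crush AAV-null and 3118 ± 790.3 CPM in crush AAV-CNTF (SD, n = 5 each). It passed against sham with AAV-CNTF (log2 change 0.88; Benjamini-Hochberg adjusted p by edgeR = 0.000114) and not with AAV-null (0.15, adjusted p = 0.505). Gramd1b, a sterol transfer protein at membrane contacts, and Dhdds, which makes dolichol, passed on the lower side against sham with AAV-CNTF (-0.49 and -0.47; Benjamini-Hochberg adjusted p by edgeR = 0.0139 and 0.0204). None of the 3 passed between the crush groups, and they were named after their values were seen.

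The fold of crush with AAV-null over sham was higher in FPKM than in CPM for 35 of the 36 genes, with a median ratio of 1.13 between the folds, so part of each gap was shared by nearly all of them. Insig2 was 1.71-fold higher after crush with AAV-null in FPKM and 1.01-fold in CPM, Soat1 2.48-fold and 1.60-fold, and Stard4 0.916-fold and 0.613-fold. Insig2 was the 1 gene of the 36 whose apparent length (count per FPKM, relative to the median gene of the library) moved by over 0.5 on the log2 scale, as did 4.53% of 12393 genes. The sham and crush libraries overlapped in apparent length for all 36.

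On deviations from the group means, the genes outside the 36 that followed the synthesis enzymes most closely were Suv39h1 (r = 0.905), Enpp4 (0.901) and Blvra (0.876), and 7 of the 10 closest were shared between Pearson's r and Spearman's rho. None of these 3 was among the 10 closest by level. They top a ranking of all tested genes outside the 36 over only 15 libraries, and such a selection by itself raises r. Pearson's r and Spearman's rho were taken on the same values, so their overlap is not independent support. Whether these r exceed chance was not tested.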
